A study of Homo sapiens with 9 samples.

Results

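Mitosis and cytokinesis genes were followed here in HepG2 cells, a line established from a human hepatocellular carcinoma, in which siRNA had been used to lower HNF4alpha and HNF4gamma together. The set holds 56 genes listed by name for their part in cell division: mitotic kinases and cyclins, checkpoint and anaphase genes, kinetochore and kinesin genes, condensin subunits and cytokinesis genes. This set and the other gene lists below were chosen with earlier results of these data known. Each gene was read from the brightest probe set annotated to its symbol alone. All 56 had a probe set of their own, and 55 of them stood above the array median often enough to be tested, among 13056 genes tested in all. INCENP was the exception, and is described with its complex.

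The study compared 3 groups of 3 Affymetrix arrays each. The groups named knockdown1 and knockdown2 are both siRNA double knockdowns of HNF4alpha and HNF4gamma, and the third group is the control; the labels say neither how the knockdowns differ nor what the control cells received. All groups were made from HepG2 cells, with total RNA converted to biotin-labelled cRNA. The labels do not say whether the arrays of a group came from separate cultures, so p-values reflect only how far these arrays spread, possibly for technical reasons, and their number limits the precision. Differences in mRNA between bulk samples of this kind cannot tell a smaller share of cells in division from less RNA per dividing cell.

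Most genes of this set are transcribed in a wave late in the cell cycle. CDK1 bound to cyclin A or cyclin B drives entry into mitosis, Aurora and Polo-like kinases build the spindle, the spindle checkpoint delays anaphase until kinetochores are attached, and the anaphase-promoting complex then marks securin and cyclin B for destruction. Their promoters are known for the CHR (cell cycle genes homology region), which is bound by MuvB complexes that repress in quiescence as DREAM and activate with B-MYB and FOXM1 late in the cycle, and for CCAAT boxes bound by NF-Y. HNF4alpha and HNF4gamma are nuclear receptors of liver and gut epithelium.

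Values are the deposited MAS5 signals, scaled so that each array has the same median of 14.1, and are called scaled signals below. Differences are on the log2(scaled signal + 1.41) scale, which understates changes of dim genes, and a gene rose or fell where limma's adjusted p over all tested genes was under 0.05. Array medians as deposited lay between 12.3 and 15.7, and correlations between arrays were 0.973 to 0.978 within a group and 0.931 to 0.953 between groups. HNF4G, 1 of the targeted genes, read 14.4, 23.5 and 17.4 in knockdown1, 41.9, 24.4 and 28.6 in knockdown2 and 45.2, 47.9 and 44.9 in control. It was lower in knockdown1 by limma (log2 difference -1.28, SE 0.28, adjusted p = 5.38e-04), whereas its difference in knockdown2 was -0.56 (SE 0.28, adjusted p = 0.142), and between the knockdowns it was -0.72 (SE 0.28, adjusted p = 0.0517). HNF4A was not analysed here. All 11 hepatocyte and hepatoma markers passed the filter, with a summed scaled signal of 40944 to 49523 in knockdown1, 45910 to 49205 in knockdown2 and 47983 to 57213 in control. By limma 5 of the 11 fell in knockdown1 (TF, APOA1, TTR, FGB and GPC3, with differences of -0.91 to -0.33). In knockdown2 3 fell (TF, APOA1 and TTR, -0.76 to -0.61). Over all tested genes 19.0% were called lower and 14.3% higher in knockdown1, and 13.9% and 13.7% in knockdown2. Fibroblast markers (4 of 6 passing) summed to 120.2 to 152, 113 to 145 and 99.3 to 143 in the same order, and DCN fell in knockdown1 (-1.19). Endothelial markers (1 of 5 passing, with the group means of CDH5, VWF, KDR and TEK below the common median) summed to 77.6 to 96.4, 88.9 to 129.8 and 66.3 to 73.8, and PECAM1 rose in both knockdowns (0.49 and 0.69). Leukocyte markers (2 of the 4 with a probe set passed the level filter) summed to 2706 to 3431, 3353 to 4211 and 2960.0 to 3928, nearly all of it from LYZ, and PTPRC read 10.1 at most. CD14 averaged 23.4 in control, but 2.11 in knockdown1 and 4.02 in knockdown2, under the array median on every knockdown array. It thus passed the filter only through the control arrays, and the sizes of its falls (-2.80 and -2.53) depend on the pseudocount. The part of any of these markers in the results was not tested.

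Division genes were lower throughout the knockdown1 arrays. Of the 55 tested, 54 fell in knockdown1 against control, none rose, and 52 fell at least 2-fold; at an unadjusted p under 0.05 the counts were 54 and 0. Over all tested genes the share called lower was 19.0%, the share called higher 14.3% and the share called lower at least 2-fold 7.48%. The median difference of the division genes was -2.10, a 4.29-fold lower level, against -0.01 over all tested genes, and 1.49% of all tested genes lay at or below it. Of all calls, 42.9% were higher, and 53.7% to 55.0% under the other scalings, and 54 division genes fell under each of these too. Single differences ran from -3.67 for KIFC1, whose knockdown1 signals were under the array median, to -0.08 for ECT2, with SE of 0.14 to 0.203. For 54 of the 55, every knockdown1 array lay below every control array, which was so for 21.7% of all tested genes. The 100 genes with the most negative differences, 0.766% of those tested, included 17 division genes, and the lowest 500, 3.83% of those tested, included 46.

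In knockdown2, read against the same 3 control arrays, most division genes had no call. Of the 55, 12 fell and 3 rose by limma, 21.8% and 5.45% of them, where 13.9% of all tested genes were called lower and 13.7% higher. The median difference was -0.14, beside 0.01 over all tested genes, and 36.6% of all tested genes lay at or below the division genes' median. Arrays of knockdown2 lay wholly below those of control for 19 of the 55 division genes and wholly above for 5 of the 55. Over all tested genes this was so for 19.8% and 19.9%, a smaller share below and a larger share above. Only FOXM1 and KIF20A fell at least 2-fold (4.58% of all tested genes did). These counts depended on scaling, as did those over all genes, and the common median gave the fewest calls each way. With values as deposited 20 of the 55 division genes fell and 5 of the 55 rose, where 20% of all tested genes were called lower and 17.4% higher. After quantile normalization the same numbers of the 55, 20 and 5, stood beside 20.2% and 17.6% of all tested genes. With arrays centred on the tested genes 17 of the 55 fell and 8 of the 55 rose, where 16.3% and 21.5% of all tested genes did. As a share of the 55, the lower count was above that of all tested genes under each scaling, and the higher count was below it. Without control replicate 3, 7 rose.

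Set directly against knockdown2, with no control array in the contrast, all 55 tested division genes were lower in knockdown1, 52 of them at least 2-fold, and none was higher, also at an unadjusted p under 0.05. Over all tested genes 16.1% were called lower, 5.17% lower at least 2-fold and 10.5% higher. The median difference was -1.96, a 3.9-fold lower level, against -0.03 over all tested genes, and 0.911% of all tested genes lay at or below it. Higher calls were 39.4% of all calls, and 57.1% with values as deposited and 56.1% after quantile normalization, where the median of all tested genes moved from -0.03 to 0.08 and 0.06. PRC1 had the most negative difference at -3.29 and CDKN3 the least at -0.45 (adjusted p = 0.0317). Every knockdown1 array lay below every knockdown2 array for 54 of the 55, and for 24.8% of all tested genes. CDKN3 was the gene whose arrays overlapped.

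**Figure D1:**
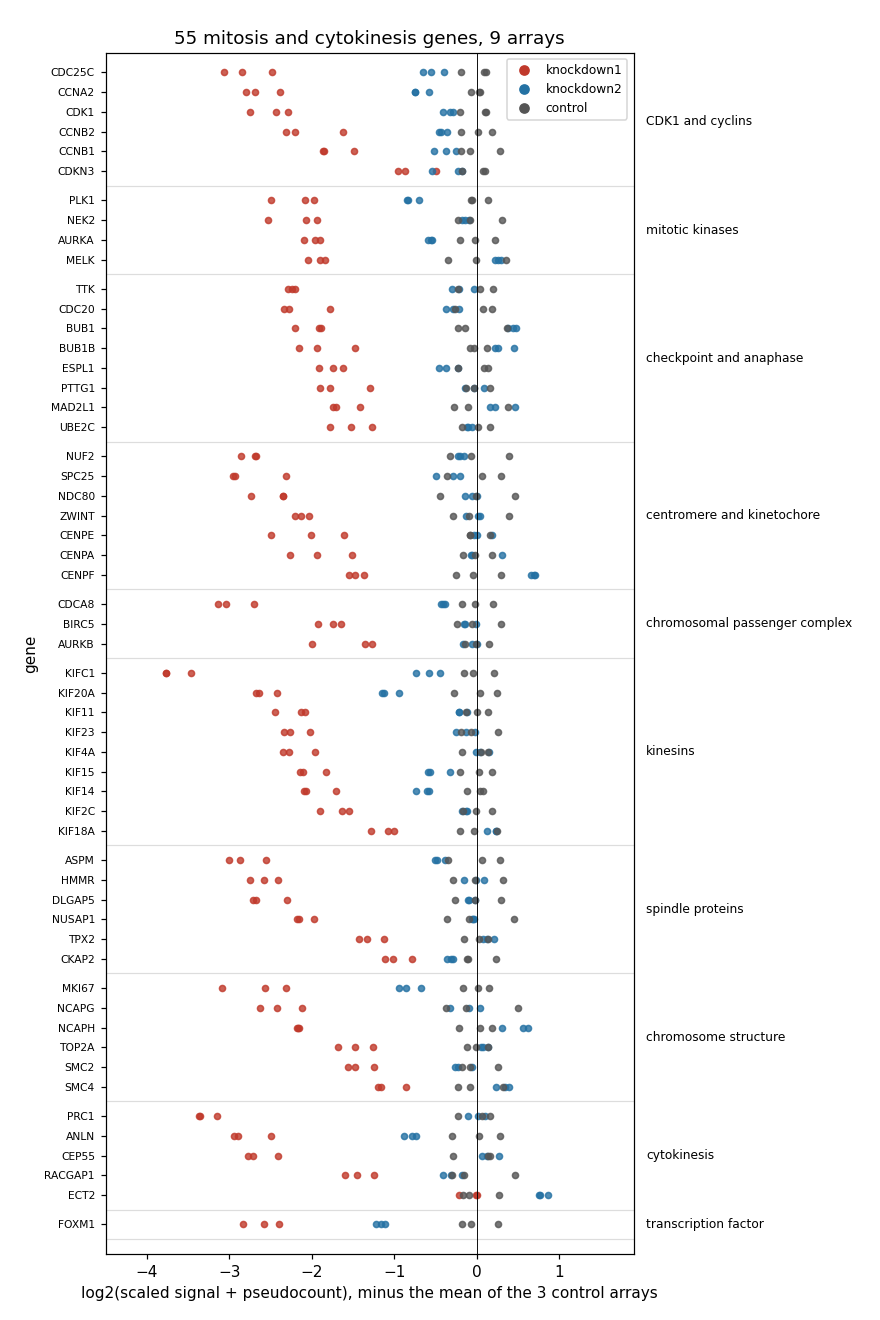
Each row is 1 of the 55 tested division genes, grouped by role, and each point is 1 array (red knockdown1, blue knockdown2, grey control). The horizontal axis is log2(scaled signal + pseudocount) minus the mean of the 3 control arrays. Red points lie left of the grey ones for 54 of the genes, and ECT2 is the row where they overlap.

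Averaged over the 55 genes, the knockdown1 arrays stood at -2.16, -2.14 and -1.89 relative to the control mean, the knockdown2 arrays at -0.18, -0.16 and -0.19, and the control arrays at -0.01, -0.21 and 0.21. Knockdown1 replicate 3 was the highest of its group, and the knockdown2 arrays spread over a narrower range than the controls. As deposited, the knockdown1 arrays stood at -2.04, -1.96 and -1.92 and the control arrays at -0.01, -0.03 and 0.04. With arrays centred on the tested genes the knockdown2 arrays, at -0.13, -0.10 and -0.16, spread slightly more widely than the controls, at -0.01, -0.02 and 0.03. After scaling to a common median, the median of all tested genes moved with the controls' order, at 0.00, -0.17 and 0.17 in the same arrays. With values as deposited these medians were -0.001, -0.002 and 0.007, so the common median set the control arrays further apart. Control replicate 3 was the highest control array in 49 of the 55 genes after scaling to a common median and in 27 with the values as deposited, and knockdown1 replicate 3 was the highest of its group in 45 and 28.

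**Figure D2:**
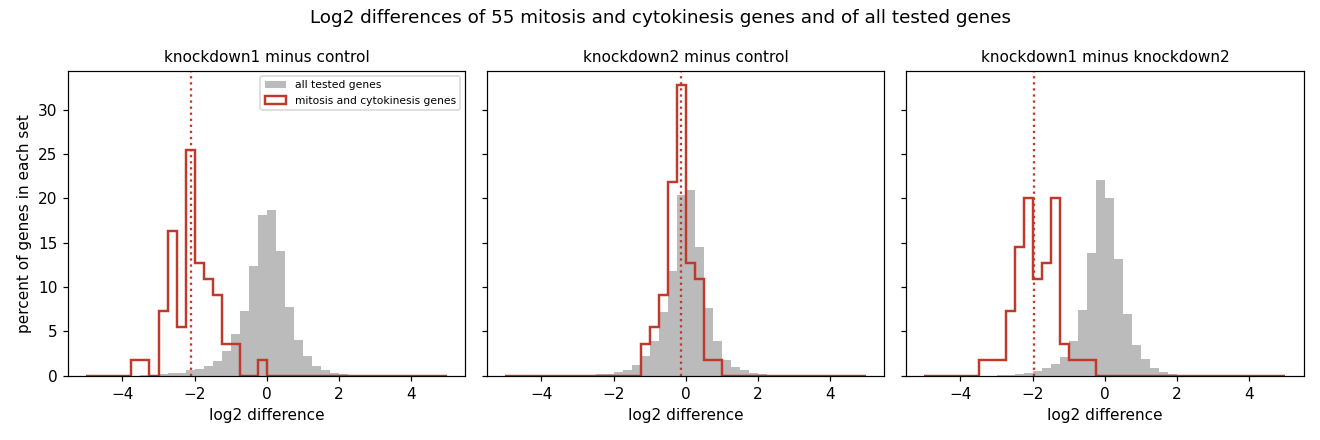
Histograms of log2 differences for the 3 comparisons, as a percent of genes in each set, with the 55 division genes in red outline, all 13056 tested genes in grey, and a dotted line at the division genes' median. The red outline is shifted left in both panels that include knockdown1 (medians -2.10 and -1.96) and lies over the grey one for knockdown2 against control (median -0.14).

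Promoters of the division genes were also searched for the short motifs named above. Genes of this kind are known for these motifs, so the motif shares of the listed genes follow from the choice of the list. They would be the same without the arrays, and a link to the change in knockdown1 was not tested. RefSeq promoters on GRCh38.p14 were matched by symbol for 49 of the 56 genes; AURKA, TTK, UBE2C, BIRC5, TPX2, RACGAP1 and FOXM1 were not in the table used. The search covered the 250 bases before the first listed start of each gene, on both strands, for 3 motifs, with overlaps between motifs allowed. The CHR was taken as TTTGAA, or in a less common form as TTCGAA. No other form was searched for, so a gene counted as without a CHR lacks only these letters. NF-Y boxes were read as the letters that name them, CCAAT. The E2F sites searched for were TTTGGCGC, TTTCGCGC, TTCCCGCC and TTTCCCGC. The 6 sequences printed here are the 150 bases before the start, 5′ to 3′ on the gene's own strand, with matches to any of these motifs in capitals. They were chosen to show the arrangement of CHR and CCAAT box in PRC1 (minus strand, chr15:90994536-90994685), which had the most negative difference of the genes with both, in the proliferation marker MKI67 (minus strand, chr10:128126424-128126573), in the kinase gene PLK1 (plus strand, chr16:23678739-23678888) and in the cyclin gene CCNB2 (plus strand, chr15:59104996-59105145). KIFC1 (plus strand, chr6:33391673-33391822) is shown because it had the most negative difference on the scale used and ECT2 (plus strand, chr3:172750576-172750725) because it did not fall.
PRC1: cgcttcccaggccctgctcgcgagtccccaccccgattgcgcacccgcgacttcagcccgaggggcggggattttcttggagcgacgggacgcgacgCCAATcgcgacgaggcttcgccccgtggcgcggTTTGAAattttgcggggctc
MKI67: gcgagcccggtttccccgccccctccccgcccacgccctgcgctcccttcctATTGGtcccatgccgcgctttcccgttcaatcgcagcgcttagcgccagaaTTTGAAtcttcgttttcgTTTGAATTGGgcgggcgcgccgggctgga
PLK1: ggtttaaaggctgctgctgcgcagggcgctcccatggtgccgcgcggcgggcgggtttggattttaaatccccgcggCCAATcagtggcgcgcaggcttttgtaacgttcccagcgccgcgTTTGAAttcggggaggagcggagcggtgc
CCNB2: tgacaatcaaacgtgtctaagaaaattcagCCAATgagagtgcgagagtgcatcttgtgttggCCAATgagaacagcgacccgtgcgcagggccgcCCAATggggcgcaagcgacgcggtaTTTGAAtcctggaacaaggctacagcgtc
KIFC1: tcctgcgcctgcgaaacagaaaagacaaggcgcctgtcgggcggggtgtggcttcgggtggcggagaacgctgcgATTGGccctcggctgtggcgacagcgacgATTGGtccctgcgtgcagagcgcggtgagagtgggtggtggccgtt
ECT2: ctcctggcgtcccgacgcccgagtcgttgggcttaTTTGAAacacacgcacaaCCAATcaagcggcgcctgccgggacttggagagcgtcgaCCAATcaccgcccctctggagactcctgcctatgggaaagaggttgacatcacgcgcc
In PRC1, PLK1 and CCNB2 a TTTGAA lies close to the start with the CCAAT boxes upstream of it. MKI67 has 2 copies of TTTGAA, of which the second runs into a reverse CCAAT box, and a reverse CCAAT box further upstream. KIFC1 shows 2 reverse CCAAT boxes with no CHR, and ECT2 has both motifs with its TTTGAA upstream of its 2 CCAAT boxes.

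A CHR was found in 28 of the 49 division gene promoters (57.1%), in 14.6% of the 27305 promoters in the table and in 10.1% of the 10521 promoters of tested genes. CCAAT boxes occurred in 36 (73.5%), against 33% of all promoters and 34.8% of those of tested genes, and 2 or more in 22 (44.9%), against 10% and 12.4%. Both motifs were present together in 23 (46.9%), against 5.24% and 4.08%, whereas an E2F site occurred in 5 (10.2%), against 4.37% and 6.84%. A CHR lay within the last 60 bases before the start in 18 (36.7%, against 2.88% of all promoters), and in 14 of these a CCAAT box lay upstream of it (28.6%, against 0.938%); this window was chosen after the sequences were seen. A match is a description of letters, not a binding site. The median difference in knockdown1 against control was -2.20 over the 27 tested genes with a CHR and -2.0 over the 21 without, and in knockdown2 the medians were -0.14 and -0.14. KIFC1, CDC25C and NUF2, each with the most negative difference of its role, had no CHR in the 250 bases searched. PLK1, CDCA8, ASPM, MKI67 and PRC1, each the most negative of its own role, had one. TTK and FOXM1 had no promoter in the table used. With the 50 bases after the start added, a CHR occurred in 37 of the 49 (75.5%) and in 16.6% of all promoters. Some genes counted above as without a CHR therefore have the motif at or just after the start. The medians were not recomputed for this wider window, so they do not compare genes with and without a CHR in it.

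**Figure D3:**
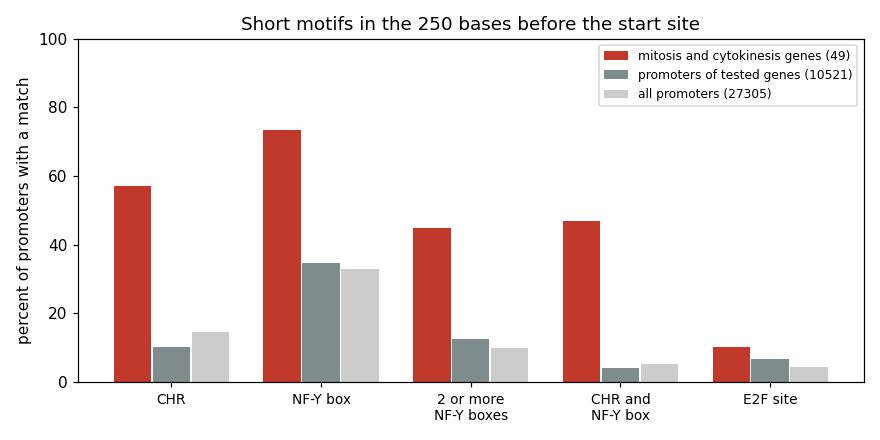
Bars give the percent of promoters with a match in the 250 bases before the start, for the 49 division genes (red), 10521 tested genes (dark grey) and all 27305 promoters (light grey), on an axis from 0 to 100. NF-Y box stands for CCAAT. The red bar is the taller for CHR (57.1%), CCAAT box (73.5%) and both together (46.9%), and nearer to the others for the E2F site (10.2%).

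FOXM1, the forkhead factor that activates late cell cycle genes, was itself lower in both knockdowns. FOXM1 read 48.2, 40.1 and 54.9 in knockdown1, 125, 130.4 and 135 in knockdown2 and 279.6, 259 and 353 in control. The 3 groups did not overlap, with knockdown1 lowest and knockdown2 between it and control. The log2 differences from control by limma were -2.60 (SE 0.17, adjusted p = 1.25e-12) in knockdown1 and -1.17 (SE 0.17, adjusted p = 3.56e-06) in knockdown2, and the direct difference of knockdown1 from knockdown2 was -1.43 (adjusted p = 1.28e-07). FOXM1 had the most negative knockdown2 difference of the 55 genes.

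CDK1, cyclins and their regulators came next in order of action. All 6 genes of this role fell in knockdown1 (median -2.27), and 2 of them, CCNA2 and CDC25C, fell in knockdown2 (median -0.40). CCNB1, which encodes cyclin B1, the activating partner of CDK1 at mitotic entry, read 381, 388 and 497 in knockdown1, 977, 1171 and 1083 in knockdown2 and 1319, 1219.8 and 1699 in control. Its knockdown1 arrays were the lowest and its knockdown2 arrays lay just below the controls. CCNB1 fell by 1.74 on the log2 scale in knockdown1 (SE 0.15, limma adjusted p = 3.78e-10), while its difference in knockdown2, -0.38, had an adjusted p of 0.0602. CDC25C, the phosphatase that removes inhibitory phosphates from CDK1, read 22.6, 19.1 and 29.3 in knockdown1, 129, 116 and 108 in knockdown2 and 181, 149 and 183 in control. The 3 groups were again separate, and the difference was -2.80 (SE 0.18, adjusted p = 1.65e-12) in knockdown1 and -0.53 (SE 0.18, adjusted p = 0.0278) in knockdown2 by limma.

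CDKN3, a phosphatase that acts on CDK1 and CDK2, changed least in this role and read 251, 267 and 345 in knockdown1, 334, 431 and 414 in knockdown2 and 513, 431 and 523 in control. Its knockdown1 arrays lay below the controls, but the highest of them lay above the lowest knockdown2 array. CDKN3 fell in knockdown1 (log2 difference -0.77, SE 0.16, adjusted p = 2.86e-04) and differed between the knockdowns by -0.45 (SE 0.16, adjusted p = 0.0317) with limma. The last call ended when 1 array was left out, with adjusted p of 0.166 and 0.107 without knockdown1 replicates 1 and 2, and of 0.158 and 0.124 without knockdown2 replicates 2 and 3. CDK1 itself fell by 2.49 in knockdown1, CCNA2 (cyclin A2) fell by 2.63 and CCNB2 (cyclin B2) fell by 2.04, all at limma adjusted p no larger than 7.73e-11. In knockdown2 CCNA2 fell by 0.69 (adjusted p = 6.38e-04), and CDK1 at -0.34 and CCNB2 at -0.42 were not called although all their knockdown2 arrays lay below the controls.

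Mitotic kinases followed the cyclins. All 4 fell in knockdown1 (median -2.08), and 2 fell in knockdown2. PLK1, the Polo-like kinase of mitotic entry, spindle assembly and cytokinesis, read 86.9, 116 and 125 in knockdown1, 275, 277 and 305 in knockdown2 and 545, 474 and 470.2 in control. Each group was separate from the others, with knockdown2 intermediate. Against control PLK1 differed by -2.18 (SE 0.16, adjusted p = 8.71e-12) in knockdown1 and by -0.79 (SE 0.16, adjusted p = 2.77e-04) in knockdown2 in the limma fit. AURKA, the Aurora kinase of centrosome maturation, read 337, 353 and 308 in knockdown1, 873, 903 and 893 in knockdown2 and 1295, 1148 and 1542 in control. Its order was the same, with differences of -1.98 (SE 0.14, adjusted p = 6.95e-12) and -0.57 (SE 0.14, adjusted p = 0.00274) by limma. MELK, a kinase of the AMPK-related family expressed in dividing cells, read 112, 101 and 117 in knockdown1, 493, 504 and 519 in knockdown2 and 419, 332 and 542 in control. Here knockdown1 was low while the knockdown2 arrays lay within the spread of the controls, and the differences were -1.93 (SE 0.16, adjusted p = 1.89e-10) and 0.26 (SE 0.16, adjusted p = 0.259) by limma. NEK2, a kinase of centrosome separation, fell by 2.18 in knockdown1 and stood at -0.14 in knockdown2, with no call.

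Spindle checkpoint and anaphase genes, 8 in number, all fell in knockdown1 (median -1.81) and none was called in knockdown2 by limma (median -0.06; at an unadjusted p under 0.05, 1 was lower and 1 higher). PTTG1, which encodes securin, the inhibitor of separase, read 507, 553 and 775 in knockdown1, 1716, 2022 and 1852 in knockdown2 and 1856, 1736 and 2125 in control. Knockdown1 lay lowest, and knockdown2 overlapped control. PTTG1 fell by 1.66 in knockdown1 (SE 0.15, limma adjusted p = 8.13e-10) and differed by -0.03 in knockdown2 (adjusted p = 0.913). TTK, the MPS1 kinase that starts checkpoint signalling, read 49.4, 46.3 and 48.1 in knockdown1, 227, 199.7 and 188 in knockdown2 and 237, 198 and 265 in control. All knockdown1 arrays lay below every other array, and the knockdown2 and control arrays overlapped. It had the most negative difference of the role, -2.24 (SE 0.16, adjusted p = 7.17e-12), and -0.18 (SE 0.16, adjusted p = 0.445) in knockdown2 by limma. UBE2C, the ubiquitin-conjugating enzyme of the anaphase-promoting complex, had the least negative at -1.53 (SE 0.16, adjusted p = 9.05e-09), and read 122, 102 and 146 in knockdown1, 326, 341 and 330.1 in knockdown2 and 359, 313 and 398 in control. Even here the highest knockdown1 array was below the lowest control array.

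The checkpoint kinase genes BUB1 and BUB1B changed by -2.0 and -1.86 in knockdown1. Their knockdown2 arrays all lay above the controls, at log2 differences of 0.43 and 0.31, with limma adjusted p of 0.0502 and 0.162. MAD2L1, which encodes the checkpoint inhibitor MAD2, fell by 1.63, CDC20, the activator of the anaphase-promoting complex that MAD2 holds, fell by 2.13, and ESPL1, which encodes separase, fell by 1.76. In knockdown2 these genes stood at 0.28, -0.29 and -0.35, without a call.

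All 7 centromere and kinetochore genes fell in knockdown1 (median -2.13), and in knockdown2 none fell, also at an unadjusted p under 0.05, and CENPF rose (median -0.03). ZWINT, a partner of the KNL1 scaffold of the kinetochore, read 270.3, 284 and 303 in knockdown1, 1286, 1262 and 1138 in knockdown2 and 1169.7, 1020.3 and 1644 in control. Knockdown2 lay inside the range of the controls, and the differences were -2.13 (SE 0.15, adjusted p = 1.10e-11) in knockdown1 and -0.03 (SE 0.15, adjusted p = 0.920) in knockdown2 by limma. NUF2, a subunit of the NDC80 complex that holds microtubule ends, read 37.6, 33.3 and 38.0 in knockdown1, 214, 226 and 217 in knockdown2 and 239, 201 and 329 in control. Its difference of -2.74 (SE 0.17, adjusted p = 7.53e-13) was the most negative of the role, and in knockdown2 it was -0.20 (SE 0.17, adjusted p = 0.448). CENPF, a large protein of the outer kinetochore and nuclear envelope, read 91.7, 80.6 and 84.6 in knockdown1, 388, 387 and 376 in knockdown2 and 229.7, 200.3 and 293 in control. All knockdown2 arrays stood above all controls and all knockdown1 arrays below them. CENPF fell in knockdown1 (-1.46, SE 0.16, adjusted p = 1.98e-08) and rose in knockdown2 (0.69, SE 0.16, adjusted p = 0.00130) by limma, so that the knockdowns differed by -2.15 in it. Of the remaining genes, NDC80 and SPC25, both of the NDC80 complex, changed by -2.48 and -2.73 in knockdown1. CENPE, the kinesin-like motor of the kinetochore, fell by 2.04, and CENPA, the histone H3 variant of centromeres, fell by 1.91.

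In the chromosomal passenger complex, which corrects faulty attachments and later marks the spindle midzone, the 3 tested subunits fell in knockdown1 (median -1.77) and none was called in knockdown2 by limma (1 was lower at an unadjusted p under 0.05). BIRC5, which encodes survivin, read 237, 269 and 289 in knockdown1, 819.7, 812 and 903 in knockdown2 and 873, 768 and 1110.1 in control. CDCA8, which encodes borealin, read 37.2, 34.8 and 47.4 in knockdown1, 238, 234 and 242 in knockdown2 and 311, 279.6 and 363 in control. AURKB, the kinase of the complex, read 35.4, 22.3 and 37.7 in knockdown1, 93.3, 89.5 and 82.3 in knockdown2 and 103, 83.9 and 92.6 in control. Knockdown1 lay below control in each of them, and in knockdown2 only CDCA8 had all its arrays below the controls. The limma differences in knockdown1 were -1.77 (SE 0.15, adjusted p = 2.21e-10) for BIRC5, -2.96 (SE 0.16, adjusted p = 8.63e-14) for CDCA8 and -1.54 (SE 0.20, adjusted p = 4.87e-07) for AURKB, and in knockdown2 they were -0.10, -0.41 and -0.07. INCENP, the scaffold of the complex, was dim: its only probe set read between 2.18 and 18.1 over the 9 arrays, at or below the common median in 7 of them, and was not tested.

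Kinesins, the motors that slide and shorten microtubules, numbered 9. All fell in knockdown1 (median -2.20), and KIF14, KIF15, KIF20A and KIFC1 fell in knockdown2. KIF11, the motor that pushes spindle poles apart, read 76.8, 95.4 and 98.6 in knockdown1, 364, 391 and 366 in knockdown2 and 424, 386 and 466 in control. The knockdown1 arrays were far below and the knockdown2 arrays at the lower edge of the controls, with differences of -2.22 (SE 0.15, adjusted p = 3.18e-12) and -0.18 (SE 0.15, adjusted p = 0.412) by limma. KIFC1, the minus-end motor that focuses spindle poles, read 8.46, 10.7 and 8.46 in knockdown1, 88.2, 78.8 and 96.8 in knockdown2 and 119, 128 and 154 in control. Its knockdown1 signals were under the array median of 14.1, so the size of its fall depends on the pseudocount: -3.67 (SE 0.20, adjusted p = 1.02e-13) as measured here. It was the most negative of the 55 on this scale and -3.86 without a pseudocount, but -2.66 with a pseudocount equal to the common median, where PRC1 was the most negative at -3.11. In knockdown2 KIFC1 was lower by 0.59 (SE 0.20, limma adjusted p = 0.0295). KIF18A, which dampens chromosome movement at the metaphase plate, read 36.0, 41.6 and 43.7 in knockdown1, 105, 105 and 97.3 in knockdown2 and 87.1, 77.2 and 106 in control. It had the least negative difference of the kinesins, -1.12 (SE 0.18, adjusted p = 1.18e-05), and was not called in knockdown2 (0.19, SE 0.18, adjusted p = 0.475).

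KIF20A, the motor that carries the passenger complex to the midzone, read 69.5, 71.2 and 83.0 in knockdown1, 234, 207 and 204 in knockdown2 and 464, 372 and 537 in control. The groups stood apart from each other, and KIF20A fell by 2.58 in knockdown1 (SE 0.16, limma adjusted p = 6.63e-13) and fell by 1.07 in knockdown2 (SE 0.16, adjusted p = 6.79e-06). KIF14, a motor of cytokinesis, changed by -1.95 and -0.64, and KIF15, which acts beside KIF11, changed by -2.02 and -0.50, in knockdown1 and knockdown2. The remaining kinesins fell in knockdown1: KIF2C, a microtubule depolymerase at centromeres, fell by 1.69, KIF4A, a chromosome-bound motor, fell by 2.20, and KIF23, the motor of centralspindlin, fell by 2.21. In knockdown2 they had no call and stood at -0.15, 0.06 and -0.14, and all 9 kinesins were lower in knockdown1 than in knockdown2 when these were compared directly.

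The 6 spindle proteins all fell in knockdown1 (median -2.33), and ASPM fell in knockdown2. TPX2, which activates Aurora A on spindle microtubules, read 302, 324 and 375 in knockdown1, 890.5, 858 and 948 in knockdown2 and 834, 733 and 895 in control. Knockdown1 was lowest and knockdown2 overlapped control, at differences of -1.30 (SE 0.14, adjusted p = 2.50e-08) and 0.13 (SE 0.14, adjusted p = 0.535) by limma. ASPM, a spindle pole protein, read 76.1, 69.2 and 94.7 in knockdown1, 429.9, 403 and 395 in knockdown2 and 591, 444 and 686 in control. It had the most negative difference of the role in knockdown1, -2.81 (SE 0.16, adjusted p = 2.82e-13), and -0.46 (SE 0.16, adjusted p = 0.0361) in knockdown2. CKAP2, a cytoskeleton-associated protein of the spindle, read 217, 203 and 256 in knockdown1, 359.6, 354 and 342 in knockdown2 and 404, 409 and 516 in control. Its groups were separate but close, at -0.97 (SE 0.15, adjusted p = 7.78e-06) in knockdown1 and -0.32 (SE 0.15, adjusted p = 0.114) in knockdown2, and the direct difference of the knockdowns was -0.65. HMMR, a spindle and hyaluronan-binding protein, fell by 2.58 in knockdown1, DLGAP5, which stabilises kinetochore fibres, fell by 2.57, and NUSAP1, which bundles microtubules near chromatin, fell by 2.10. Their knockdown2 differences lay between -0.07 and -0.02.

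Genes of chromosome structure, 6 in all, fell in knockdown1 (median -1.82), while in knockdown2 MKI67 fell and NCAPH rose. SMC4, a core subunit of condensin, read 326, 335 and 413 in knockdown1, 886, 991 and 950.3 in knockdown2 and 708, 643 and 936 in control. Knockdown1 was below control and knockdown2 overlapped its upper end, at -1.08 (SE 0.15, adjusted p = 2.09e-06) and 0.32 (SE 0.15, adjusted p = 0.120) by limma. MKI67, which encodes the Ki-67 coat protein of mitotic chromosomes and is used as a marker of proliferation, read 54.4, 78.4 and 94.5 in knockdown1, 261, 247 and 296 in knockdown2 and 479, 422 and 525 in control. Its groups did not overlap, and it fell by 2.66 in knockdown1 (SE 0.17, limma adjusted p = 1.67e-12) and fell by 0.82 in knockdown2 (SE 0.17, adjusted p = 5.65e-04). NCAPH, the kleisin subunit of condensin I, read 44.0, 44.5 and 44.7 in knockdown1, 301, 315 and 254 in knockdown2 and 232, 176 and 210.2 in control. Here knockdown2 was the highest group and knockdown1 the lowest, at 0.49 (SE 0.16, adjusted p = 0.0189) and -2.17 (SE 0.16, adjusted p = 1.23e-11) against control. NCAPG, another condensin I subunit, fell by 2.39 in knockdown1, SMC2, the partner of SMC4, fell by 1.42, and TOP2A, the topoisomerase that untangles sister chromatids, fell by 1.47. None of these was called in knockdown2.

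Cytokinesis genes spanned the widest range. Of 5, 4 fell in knockdown1 (median -2.63), while in knockdown2 ANLN fell and ECT2 rose. PRC1, which bundles antiparallel microtubules of the midzone, read 88.9, 77.2 and 76.6 in knockdown1, 856, 744 and 807 in knockdown2 and 839, 684 and 898 in control. Knockdown2 and control shared their range and knockdown1 stood far below both. PRC1 fell by 3.29 in knockdown1 (SE 0.15, limma adjusted p = 1.81e-15), a 9.78-fold lower level, and its knockdown2 difference was -0.002 (SE 0.15, adjusted p = 0.996). ANLN, which encodes the contractile ring scaffold anillin, read 90.3, 87.7 and 120.1 in knockdown1, 395, 368 and 409.6 in knockdown2 and 693, 553 and 830.1 in control. The groups were separate, at -2.78 (SE 0.16, adjusted p = 2.82e-13) in knockdown1 and -0.80 (SE 0.16, adjusted p = 4.00e-04) in knockdown2 by limma. RACGAP1, the centralspindlin subunit that recruits ECT2, fell by 1.43 in knockdown1, and CEP55, an organiser of the final cut, fell by 2.63.

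ECT2, the exchange factor that activates RhoA at the cleavage furrow, was the single tested gene without a call in knockdown1, and read 619, 533 and 624 in knockdown1, 1053, 1128 and 1057 in knockdown2 and 581, 555 and 748 in control. Knockdown1 and control overlapped, and knockdown2 stood above both. By limma the difference was -0.08 (SE 0.14, adjusted p = 0.733) in knockdown1 and 0.79 (SE 0.14, adjusted p = 9.57e-05) in knockdown2, and the direct difference of knockdown1 from knockdown2 was -0.87 (adjusted p = 2.84e-05). A further probe set of ECT2 gave -0.25 in knockdown1 and 0.83 in knockdown2.

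**Figure D4:**
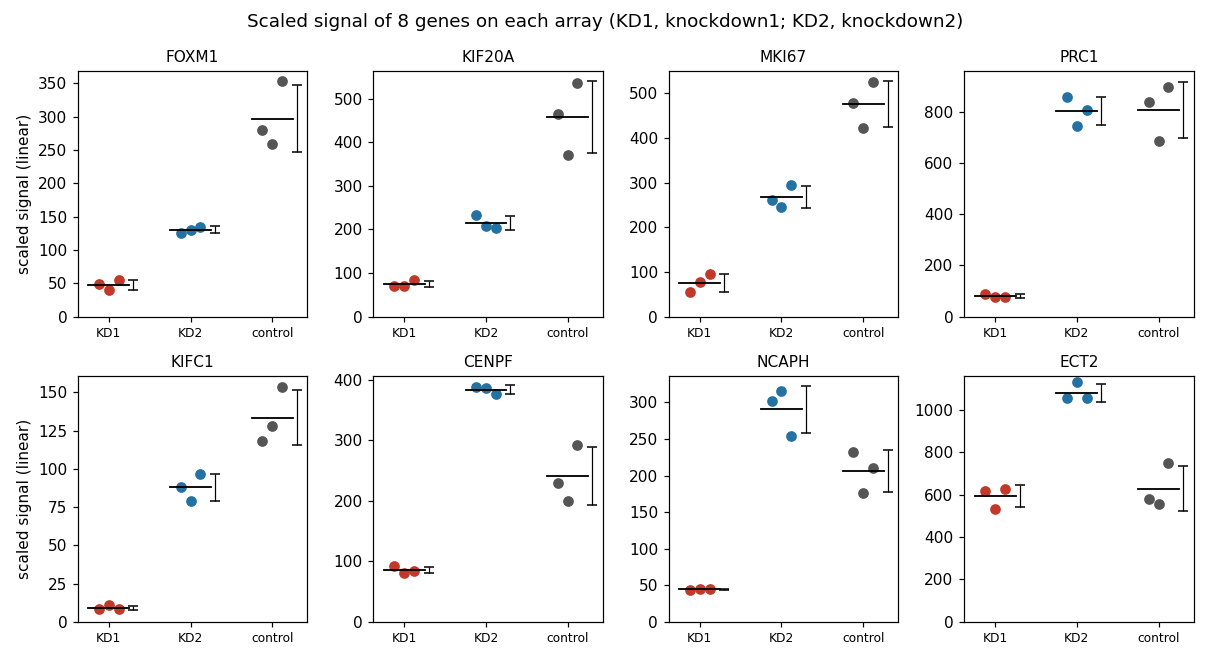
Scaled signal on a linear axis from 0 for 8 division genes, with 1 point per array, a line at the mean of 3 arrays and a bar of 1 SD either side. FOXM1, KIF20A and MKI67 step down from control through knockdown2 to knockdown1, PRC1 and KIFC1 are lowest in knockdown1, CENPF and NCAPH are highest in knockdown2 and lowest in knockdown1, and ECT2 is highest in knockdown2.

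Among the 12 genes called lower in knockdown2, the call held under all 20 alternatives for 8: CCNA2, PLK1, AURKA, KIF14, KIF20A, MKI67, ANLN and FOXM1. Of the 3 called higher, it held for CENPF and ECT2. The other 5 calls ended with single arrays left out, and 4 of them also under other settings. For CDC25C the limma adjusted p was 0.0783 and 0.113 without knockdown2 replicates 2 and 3, and 0.104 and 0.0657 without control replicates 1 and 3. KIF15 lost its call without the same 4 arrays, at 0.128, 0.125, 0.101 and 0.105. For KIFC1 it was 0.0831, 0.136 and 0.0517 without knockdown2 replicates 1, 2 and 3, and 0.0507 and 0.113 without control replicates 2 and 3. ASPM lost its call without knockdown2 replicate 1, 2 or 3 (0.0637, 0.0992 and 0.110) and without control replicate 1 or 3 (0.118 and 0.122). With no filter on dim probe sets the calls of CDC25C (0.0756), KIF15 (0.0865), KIFC1 (0.0882) and ASPM (0.0610) ended. Without a variance trend CDC25C and ASPM were at 0.0563 and 0.110. The mean over probe sets moved the difference of CDC25C from -0.53 to -0.33 (adjusted p = 0.258) and that of ASPM from -0.46 to -0.18 (adjusted p = 0.625). The NCAPH rise lost its call without knockdown2 replicate 1 or 2 (0.0800 and 0.104) and without control replicate 2 (0.0680). Conversely, 14 further division genes were called in knockdown2 under at least 1 alternative: BUB1, BUB1B, CCNB1, CCNB2, CDCA8, CDK1, CDKN3, CKAP2, ESPL1, MAD2L1, MELK, RACGAP1, SMC4 and SPC25.

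Further probe sets of the same genes were read as a check on the choice of the brightest. There were 38 for 26 genes, tested with all 24565 probe sets. In knockdown1 against control 37 had the sign of the brightest, and 31 of the 38 were called lower. In knockdown2 against control 32 had the same sign, 7 were called lower and 4 higher. Between the knockdowns all 38 had the same sign and 31 were lower in knockdown1. The opposite sign in knockdown1 came from a dim second probe set of CCNB2 (0.79, adjusted p = 0.50), and the mean over its probe sets gave -0.63 (adjusted p = 0.140). The second probe set of CENPF read -0.72 in knockdown1 and 0.54 in knockdown2.

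Other genes of the same processes were counted from lists that exclude the 56, to be read against the shares of all tested genes called lower and higher, 19.0% and 14.3% in knockdown1 and 13.9% and 13.7% in knockdown2. Of 33 inner centromere and kinetochore genes, 26 fell in knockdown1 and none rose by limma (median -1.40; 2 were higher at an unadjusted p under 0.05), and in knockdown2 7 fell and 3 rose. KNL1, the kinetochore scaffold, fell by 2.76 in knockdown1, HJURP, the chaperone of CENPA, fell by 2.55, and OIP5, a subunit of the CENPA loading complex, fell by 2.36. Of 28 spindle and centrosome genes, 21 fell and 1 rose in knockdown1 (median -0.95), with 4 lower and 3 higher in knockdown2. The largest falls were in FAM83D (-3.19), which brings casein kinase to the spindle, SPAG5 (-2.34), a spindle and kinetochore protein, and STIL (-2.23), a centriole duplication factor. NUMA1, the spindle pole organiser, was the gene called higher (0.45, SE 0.17, adjusted p = 0.0363 by limma), and the call ended without knockdown1 replicate 2 or 3 (adjusted p = 0.0784 and 0.125) and without control replicate 1 or 2 (0.0553 and 0.144). It also ended with no filter on dim probe sets (0.0680), without a variance trend (0.0630) and with only the 2 groups in the fit (0.0666).

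Of 14 other cytokinesis genes 10 fell in knockdown1 and none rose, also at an unadjusted p under 0.05 (median -1.78), and 3 fell and 2 rose in knockdown2. PBK, a mitotic kinase, fell by 3.17, SHCBP1, a midbody protein, fell by 2.90, and CDCA2, a phosphatase partner on anaphase chromatin, fell by 2.44. Among 16 genes of entry into and exit from mitosis 11 fell and 2 rose (median -0.98), and 2 fell and 3 rose in knockdown2. CKS1B, the CDK subunit, fell by 2.49, MASTL, the Greatwall kinase, fell by 2.07 and PLK4, the kinase of centriole duplication, fell by 2.0. ENSA, the Greatwall substrate that inhibits PP2A-B55, rose by 1.29, and PPP2R2A, a B55 subunit of that phosphatase, by 0.71. Both were higher in knockdown2 as well, by 0.96 and 0.97.

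Smaller shares were called in the remaining mitotic lists. Of 15 further cohesin and condensin genes 7 fell in knockdown1 and none rose, also at an unadjusted p under 0.05 (median -0.29), led by CDCA5, which encodes sororin (-2.03), and the condensin II subunits NCAPH2 (-1.28) and NCAPG2 (-1.23). In knockdown2 1 fell and 2 rose. Of 21 checkpoint and anaphase-promoting complex genes 7 fell and 1 rose in knockdown1 (median -0.22), and 5 fell and none rose in knockdown2, also at an unadjusted p under 0.05. FBXO5, which encodes the inhibitor EMI1, fell by 1.59 and UBE2S, a chain-elongating enzyme of the complex, fell by 1.43. TRIP13, which recycles checkpoint complexes, fell by 1.34 in knockdown1 and fell by 1.45 in knockdown2, with a difference of 0.11 between the knockdowns (limma adjusted p = 0.679). ANAPC13, a small subunit of the complex, was the gene called higher (0.50, SE 0.15, adjusted p = 0.00848 by limma), a call that ended without a variance trend (adjusted p = 0.0632).

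DNA replication genes were lower in knockdown1, and regulators of cell cycle transcription were called in both directions. Of 23 regulators tested 9 fell and 3 rose in knockdown1 (median -0.35), and 4 fell and 4 rose in knockdown2. The count of 3 higher in knockdown1 and both knockdown2 counts are near the shares called among all tested genes. E2F1, an activator of S-phase genes, fell by 2.49 in knockdown1, E2F2, another activator, fell by 2.02, and E2F7, an atypical repressor, fell by 1.86. E2F3 rose by 1.22 in knockdown1 and 1.46 in knockdown2, and CDKN1A, which encodes the CDK inhibitor p21, by 1.13 and 0.87. CDKN1A read 1374, 1379 and 1526 in knockdown1, 1207, 1188 and 1184 in knockdown2 and 620.0, 575 and 777 in control. Its control arrays were the lowest and the knockdowns were not called different (0.26, SE 0.14, adjusted p = 0.183 by limma). They were called different, higher in knockdown1, with values as deposited (adjusted p = 3.95e-04), after quantile normalization (1.32e-04) and with centred arrays (0.00216). Of 39 DNA replication genes, 38 fell in knockdown1 and none rose, also at an unadjusted p under 0.05 (median -1.88), and 9 fell and 1 rose in knockdown2 (median -0.10). MCM5, a replicative helicase component, fell by 3.48 in knockdown1, RRM2, the small subunit of ribonucleotide reductase, fell by 3.33 and CCNE2, which encodes cyclin E2, fell by 2.64. CCNE2 was the replication gene that rose in knockdown2, by 0.83 (limma adjusted p = 7.59e-04).

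**Figure D5:**
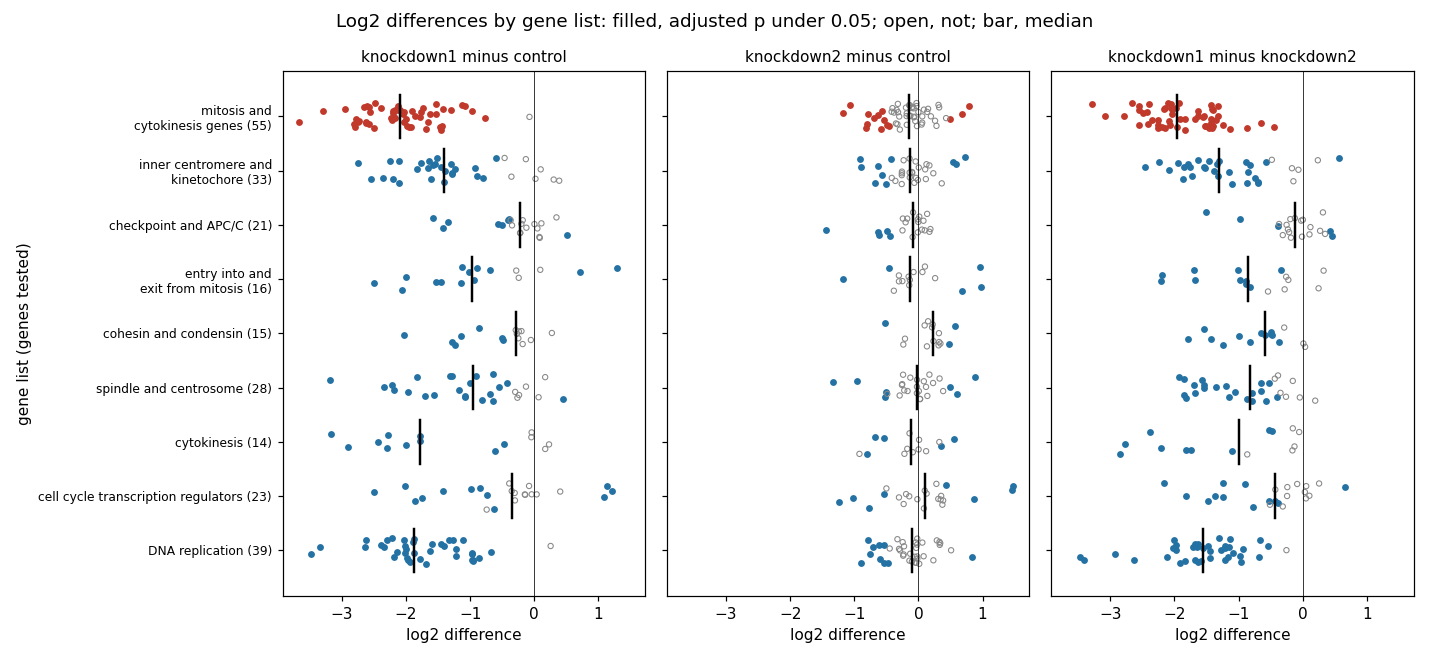
Log2 differences of each tested gene by list, for the 3 comparisons; filled points passed limma's adjusted p under 0.05, open points did not, and black bars are medians. The division genes are in red (55) and the other lists in blue, and the medians of the division genes and of the 39 DNA replication genes are -2.10 and -1.88 in knockdown1 against control and -0.14 and -0.10 in knockdown2 against control.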

How the data were processed

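The authors deposited MAS5 signal intensity values for 9 arrays of 54675 probe sets; MAS5 is named in the submitters' processing notes, with no version given there. The 2% trimmed mean of every array was 100.0. Because array medians differed by 1.28 times, above a limit of 1.2, each array was multiplied by 0.898 to 1.15 to a common median of 14.1. Probe sets above the array median in at least 3 arrays were kept (29651), the brightest per gene was used (13056 genes), and log2(value + 1.41) was fitted for all 9 arrays with limma 3.58.1 in R 4.3.3 (3 groups, variance trend, two-sided, Benjamini-Hochberg over all genes, threshold 0.05). Gene names came from GEO's platform annotation: 41091 probe sets carried 1 symbol, 1801 several and 11721 none, 62 were controls, and 0 symbols needed updating. No array pair of a group shared more than 1.37% of identical values. The fit was tested on simulated data.

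Members and lists were chosen with earlier results of these data known. Values of every array are printed for the brightest, most negative and least negative gene of each role in knockdown1 against control, the up to 4 largest knockdown2 calls each way and the 3 genes nearest to 0 between the knockdowns; other lists give up to 3 largest and up to 2 opposing calls. CDKN1A's arrays were added after its values were seen. Alternatives changed the scaling, pseudocount, filter, probe set rule, variance model, samples fitted, replicate block and arrays left out.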

Additional observations from a re-analysis of the deposited data

Results flagged for a closer look

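The difference between the knockdowns stood out for the set as a whole: 55 tested division genes were lower in knockdown1 than in knockdown2 by limma's test of the direct contrast. Both groups are labelled as knockdowns of HNF4alpha and HNF4gamma, and the labels do not say how they differ. CENPF and NCAPH went opposite ways against the shared control arrays, lower in knockdown1 and higher in knockdown2. Between the knockdowns CENPF differed by -2.15 (SE 0.16, limma adjusted p = 2.74e-11) and NCAPH by -2.66 (SE 0.16, limma adjusted p = 7.67e-13), with the 3 arrays of each knockdown not overlapping in either gene. The rise of NCAPH in knockdown2 had an adjusted p of 0.0189 and lost its call without control replicate 2 (0.0680), without knockdown2 replicate 1 (0.0800) or without knockdown2 replicate 2 (0.104). HNF4G differed between the knockdowns by -0.72 (adjusted p = 0.0517), and its part in the difference was not tested.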

How the results depend on the processing

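Over 20 alternatives, 53 of the 54 genes called lower in knockdown1 against control kept their call in every setting that could be fitted, the exception being CCNB2 with the mean over probe sets, as did 54 of the 55 called lower against knockdown2, the exception being CDKN3. In knockdown2 against control 8 of 12 lower and 2 of 3 higher calls did so. The 12 lower calls became 20 with values as deposited and 20 after quantile normalization, and 8 to 18 with 1 array left out. The 3 higher calls became 5 as deposited, 5 after quantile normalization, 8 with centred arrays, 5 with the replicate block, and 2 to 7 with 1 array left out. A pseudocount equal to the common median gave medians of -1.91 for knockdown1 against control and -1.77 between the knockdowns. Leaving out 1 array gave medians of -2.22 to -1.96, -0.26 to -0.02 (knockdown2 against control) and -2.05 to -1.86.

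HNF4G between the knockdowns passed after quantile normalization (-0.70), with the stricter filter (-0.72) and without a variance trend (-0.72). It also passed without knockdown1 replicate 2 (-0.90, limma adjusted p = 0.0305) and without knockdown2 replicate 2 (-0.89, adjusted p = 0.0374). With 1 array left out it ranged from -0.90 to -0.51. In knockdown2 against control HNF4G passed with the mean over its probe sets (-1.52). E2F2 between the knockdowns changed sign with the mean over its probe sets (0.39, adjusted p = 0.272). The cause was not tested in any of these. Same-numbered arrays deviated together with correlations of -0.02 to 0.13, and 1 of 9 pairs was over 0.1, so the numbers were not taken as pairing; the block moved no count but the 5 above by over 1.5 times among the division genes, and 9 of 18 best matches were to the array's own number. Counts over all genes moved as well: up to 3140 rose in knockdown1 against control (1866 as reported), 2803 between the knockdowns (1368) and 2805 in knockdown2 (1795). Among the division genes, signal over background limits KIFC1 in knockdown1 and INCENP throughout. Outside the set, signal over background limits E2F1 (13.1, 33.6 and 12.8) and DCN (6.11, 5.66 and 15.7) in knockdown1 and CD14 in both knockdowns. Some genes counted in the other lists were as dim in knockdown1, such as ARHGAP11A (7.24, 5.30 and 6.27). HNF4G in knockdown1, at 14.4, 23.5 and 17.4, and CCNE2, at 15.8, 18.1 and 18.6, also lay near the array median of 14.1.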

Other observations

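A probe set shared by CENPA and its genomic neighbour SLC35F6 was not used for any gene above, and read 69.9, 64.2 and 90.9 in knockdown1, 334, 356 and 325 in knockdown2 and 431, 335 and 483 in control. The knockdown1 arrays were again the lowest. For CKAP2, 6 further probe sets are annotated to it together with immunoglobulin light chain genes and were not used either. The scaled signal of 19 division genes averaged under 50 in knockdown1, and of none of them in control, where the means ran from 90.1 to 1906.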
